A study of Mus musculus with 2 samples.

Results

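In colorectal tumours from mice, a rule was set for monocytes and inflammatory macrophages low in the complement genes C1qa, C1qb and C1qc. It admitted 506 of the 26153 cell barcodes kept in both libraries, called members here. Not every member is shown to be such a cell, and 300 also met the stricter myeloid core described below. Members were chosen by summed UMIs (unique molecular identifiers, each one counted transcript). A barcode needed at least 200 genes, at most 25% mitochondrial UMIs and at least 3 UMIs over Csf1r, Adgre1, Fcgr1, Ccr2, Inhba, Chil3 and Vcan. It also needed fewer than 5 UMIs of C1qa, C1qb and C1qc, fewer than 12 of Epcam, Krt8, Krt18 and Cldn7, fewer than 5 of Col1a1, Col3a1 and Dcn, and 0 of Cxcr2, Hdc and Flt3. These genes chose the members, so their own levels are a description.

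The study examined STK25, a serine/threonine kinase, in colorectal cancer. One library was labelled STK25 wKO, from mice that the study's text calls global knockouts, and the other was labelled WT. Each was made from pooled tumours of several mice, dissociated with trypsin-EDTA and run on a 10x Genomics 3′ system, and the study's text gives AOM/DSS for the tumours of both groups, that is azoxymethane, a carcinogen, followed by a sulphated dextran that inflames the colon. The series text speaks of sorting on an mCherry signal, and strain, age, sex, the deleted part of Stk25 and the number of mice per pool were not found in the labels or the study's text. With 1 library per group no test between groups was possible: the intervals below are exact 95% intervals and cover counting error only.

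The library labelled STK25 wKO held 66297749 UMIs in 14168 barcodes, 13883 of them kept, and the library labelled WT held 38737373 UMIs in 12542 barcodes, 12270 of them kept. Stk25 itself did not separate the libraries in these cells. It had 46 UMIs, 32.5 CPM (UMIs summed over the members and scaled to 1 common total), in the library labelled STK25 wKO and 14 UMIs, 34.3 CPM, in the library labelled WT (log2 ratio -0.08, interval -0.97 to 0.90). A 3′ tag outside a deleted part would leave such counts, so the genotype labels could not be checked here and the libraries are called by their labels throughout. The files of both libraries shared 230 barcode sequences, carried by 13 members of the library labelled STK25 wKO and 3 of the library labelled WT, and 0 were members in both.

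Monocytes that carry the chemokine receptor CCR2 leave the blood and enter inflamed colon, where they first express monocyte genes and then either take on the C1q-rich state of resident macrophages or stay inflammatory. Inhba encodes the beta A subunit that pairs to form activin A, a ligand of the TGF-beta family that signals through activin receptors and SMAD2 and SMAD3. Chil3 encodes the chitinase-like protein Ym1 of mouse monocytes and neutrophils, Vcan the matrix proteoglycan versican, and Saa3 an acute-phase serum amyloid made by mouse macrophages.

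The starts of Inhba, Saa3 and Chil3 are shown because these genes are markers of the members, and Saa3 and Chil3 differed between the libraries. Inhba and Chil3 belong to the rule, which favours their presence in members. The genes lie at chr13:16011851-16031621 (Inhba), chr7:46711998-46715700 (Saa3) and chr3:106147554-106167564 (Chil3) of GRCm38, the build called mm10. Each sequence is the 250 bases before the RefSeq start on the gene's own strand, at chr13:16011601-16011850 on the plus strand, chr7:46715677-46715926 on the minus strand and chr3:106167565-106167814 on the minus strand of GRCm38.p6. Capitals mark matches on either strand to TTGCNNAA (C/EBP), TGANTCA (AP-1), TTCNNNGAA (STAT) and ACGTG (hypoxia response), and an NF-kB motif was searched in the same way.
Inhba: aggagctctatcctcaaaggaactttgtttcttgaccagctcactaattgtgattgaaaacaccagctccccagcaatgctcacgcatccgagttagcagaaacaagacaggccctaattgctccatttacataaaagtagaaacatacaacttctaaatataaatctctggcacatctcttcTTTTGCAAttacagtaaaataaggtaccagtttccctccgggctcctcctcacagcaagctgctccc
Saa3: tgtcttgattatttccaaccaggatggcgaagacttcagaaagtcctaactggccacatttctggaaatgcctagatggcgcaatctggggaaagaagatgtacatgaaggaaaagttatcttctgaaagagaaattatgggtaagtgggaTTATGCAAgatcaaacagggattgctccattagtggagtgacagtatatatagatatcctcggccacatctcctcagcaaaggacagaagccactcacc
Chil3: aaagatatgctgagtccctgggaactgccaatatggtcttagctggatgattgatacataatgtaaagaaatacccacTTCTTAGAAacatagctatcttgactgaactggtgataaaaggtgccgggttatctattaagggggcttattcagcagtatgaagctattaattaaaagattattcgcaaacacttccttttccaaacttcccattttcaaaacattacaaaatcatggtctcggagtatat
Inhba held 1 C/EBP match 67 to 60 bases before its start, and Saa3 held 1 C/EBP match 99 to 92 bases before its start. Chil3 held 1 STAT match 172 to 164 bases before its start. No match overlapped another in these windows. Of 32841 RefSeq windows of the same length, 9.57% held the C/EBP letters, 1.41% the NF-kB motif, 6.75% the AP-1 letters, 7.02% the STAT letters and 16.6% the hypoxia letters. Of the other windows searched, those of Ccr2, Vcan, Ccl3 and Ly6c2 had 0 matches, that of Lcn2 had 1 C/EBP match, and that of Slpi had 3, namely 1 C/EBP match and 2 overlapping hypoxia matches on opposite strands. A match describes the letters only.

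The members made up a larger share of the library labelled STK25 wKO. There were 400 members among 13883 kept barcodes (2.88%, interval 2.61 to 3.17%) in the library labelled STK25 wKO, against 106 among 12270 (0.864%, interval 0.708 to 1.04%) in the library labelled WT. The ratio of these shares was 3.34, with 2.50 and 4.48 as the bounds that combine both exact intervals. C1q-positive macrophages, which met the same rule except for 5 or more C1q UMIs, numbered 243 in the library labelled STK25 wKO and 57 in the library labelled WT, a ratio of shares of 3.77 (bounds 2.56 and 5.63). The bounds of both ratios overlapped, and the difference between them was not tested. Both libraries gave members of like depth, with medians of 2966.5 UMIs and 1408.5 genes in the library labelled STK25 wKO and 3030 UMIs and 1539.5 genes in the library labelled WT. All kept barcodes differed in depth, with medians of 2091 UMIs and 1087 genes labelled STK25 wKO against 1383 and 800 labelled WT. The rule asks for a number of UMIs, and the part of depth in the shares of members was not tested. The 64 and 80 B cells that serve as a background for shares of cells with a UMI were shallower than the members, at medians of 1772.5 and 1711 UMIs.

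Myeloid markers were found in more members of the library labelled STK25 wKO than of the library labelled WT. At least 3 UMIs of 10 pan-myeloid genes were present in 95% of members labelled STK25 wKO and 83.0% of members labelled WT. Their summed level was 11214 CPM against 4976 CPM. Such a count does not by itself name a cell, since 10 epithelial genes reached it in 89.75% and 65.1% of members. For 16 neutrophil genes these shares were 68.75% and 27.4%. Tyrobp alone was found in 288 of 400 members labelled STK25 wKO and 46 of 106 labelled WT. T and NK cell markers went the other way: 4% of members labelled STK25 wKO and 17.9% of members labelled WT had 3 or more UMIs over 12 such genes, at 163 CPM against 724 CPM. Of these 12 genes, Ncr1 alone was at 0 in the library labelled STK25 wKO and none was at 0 in the library labelled WT. T cells also express Ccr2, and 16.2% of 167 T cells in the library labelled STK25 wKO and 13.6% of 316 in the library labelled WT held a Ccr2 UMI. Among members with Ccr2, Cd3e was found in 15 of 167 labelled STK25 wKO and in 13 of 45 labelled WT. Many differences between libraries below are therefore also given over a myeloid core, the members with at least 3 UMIs of Tyrobp, Fcer1g, Cd68 and Spi1 and 0 of 6 T and B cell genes. The core held 262 members labelled STK25 wKO and 38 labelled WT, a ratio of shares of 6.09 (bounds 3.92 and 9.70). Malat1, a nuclear RNA, stood at 10023 CPM in members labelled STK25 wKO and 19052 CPM in members labelled WT, and over all kept barcodes at 8284 CPM against 12384 CPM.

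Many barcodes lay close to the limits of the rule. In the library labelled STK25 wKO 150 members had only 3 or 4 UMIs of the 7 genes that admit a cell and 988 barcodes with 1 or 2 lay just outside, and in the library labelled WT these numbers were 63 and 590. At the C1q limit 40 members labelled STK25 wKO had 3 or 4 C1q UMIs and 27 barcodes had 5 or 6, and in the library labelled WT 16 members and 7 barcodes did. No single gene admitted most members. Without Csf1r, the receptor for macrophage colony-stimulating factor, 109 of 400 and 35 of 106 would have been lost, and without Inhba 98 and 13.

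The marker genes gave a first view of the cells. Inhba was found in 163 of 400 members labelled STK25 wKO (40.8%, interval 35.9 to 45.7%), at 884 CPM, and in 25 of 106 labelled WT (23.6%, interval 15.9 to 32.8%), at 365 CPM. The intervals of the shares did not overlap, but in the myeloid core Inhba was found in 106 of 262 (40.5%) and 15 of 38 (39.5%) cells, at 808 and 707 CPM. The gap in Inhba between the libraries was not seen in the core. The intervals of the core shares were 34.5 to 46.7% labelled STK25 wKO and 24.0 to 56.6% labelled WT, so 38 cells are too few to show that no gap exists. A positive member held a median of 5 Inhba UMIs in the library labelled STK25 wKO and 4 in the library labelled WT, and the highest held 37 and 31. B cells had Inhba in 3.12% and 0% of cells.

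Ccr2 was found in like shares of cells, while its level was slightly lower in the library labelled STK25 wKO. It was found in 41.8% of members labelled STK25 wKO and 42.5% of members labelled WT, at 241 and 304 CPM (log2 ratio -0.34, interval -0.64 to -0.03, core -0.04), and in 0% and 1.25% of B cells. Vcan was found in 18.0% and 22.6% of members, at 112 CPM in the library labelled STK25 wKO and 167 CPM in the library labelled WT (log2 ratio -0.56, core -1.05).

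Chil3 and Saa3 separated the libraries. Chil3 was found in 139 of 400 members labelled STK25 wKO (34.8%, interval 30.1 to 39.6%) and 3 of 106 labelled WT (2.83%, interval 0.588 to 8.05%), at 821 and 7.36 CPM. No B cell of either library held a Chil3 UMI, with exact upper limits of 5.60% in the library labelled STK25 wKO and 4.51% in the library labelled WT. Saa3 was found in 83 members labelled STK25 wKO (20.8%, interval 16.9 to 25.1%) and 3 labelled WT (2.83%), at 637 and 19.6 CPM, and in 1.56% and 0% of B cells. After each cell was thinned to 1000 UMIs, which left out 3 shallower members labelled STK25 wKO and 1 labelled WT, Chil3 stood in 23.9% against 0.952% of members and Saa3 in 14.4% against 1.90%. In the myeloid core the levels were 1041 against 6.2 CPM for Chil3 and 706 against 24.8 CPM for Saa3. The core labelled WT held 38 cells with 161204 UMIs over all genes, so its values for both genes rest on few UMIs.

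**Figure D1:**
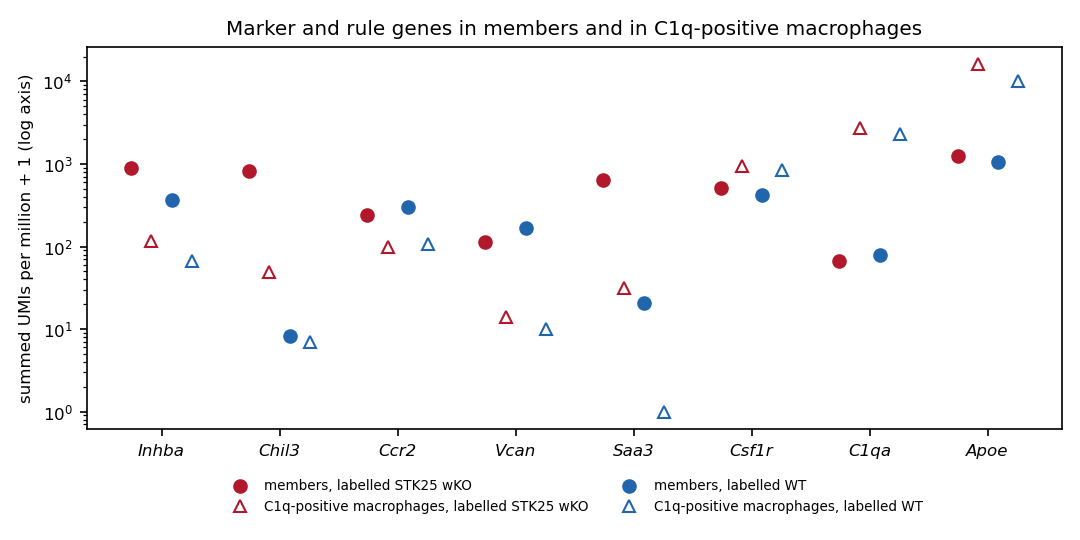
Levels of the 5 markers and of Csf1r, C1qa and Apoe, in CPM plus 1 on a log axis, in members (filled circles) and C1q-positive macrophages (open triangles) of the library labelled STK25 wKO (red) and the library labelled WT (blue). Chil3 and Saa3 stood far higher in members labelled STK25 wKO, at 821 and 637 CPM, than in members labelled WT, at 7.36 and 19.6 CPM, while Ccr2 and Vcan were close in both.

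Cells with Inhba and cells with monocyte genes overlapped only in part. In the library labelled STK25 wKO 82 members (20.5%) held Inhba but no UMI of Chil3, Ccr2 or Vcan, 81 (20.3%) held both, 182 (45.5%) held Chil3, Ccr2 or Vcan only, and 55 (13.8%) held neither. In the library labelled WT these groups held 14 (13.2%), 11 (10.4%), 49 (46.2%) and 32 (30.2%) of 106 members. Of the 139 Chil3-positive members labelled STK25 wKO 48 also held Inhba. Ccr2 stood in 36 of 163 Inhba-positive members (22.1%) and in 131 of 237 Inhba-negative ones (55.3%) of that library, a difference that the rule itself favours, since a cell could enter by either gene. Saa3, which the rule does not use, stood in 68 of the 139 members with Chil3 (48.9%) and in 15 of the 261 without it (5.75%), and in 20.2% of members with Inhba and 21.1% of those without it.

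**Figure D2:**
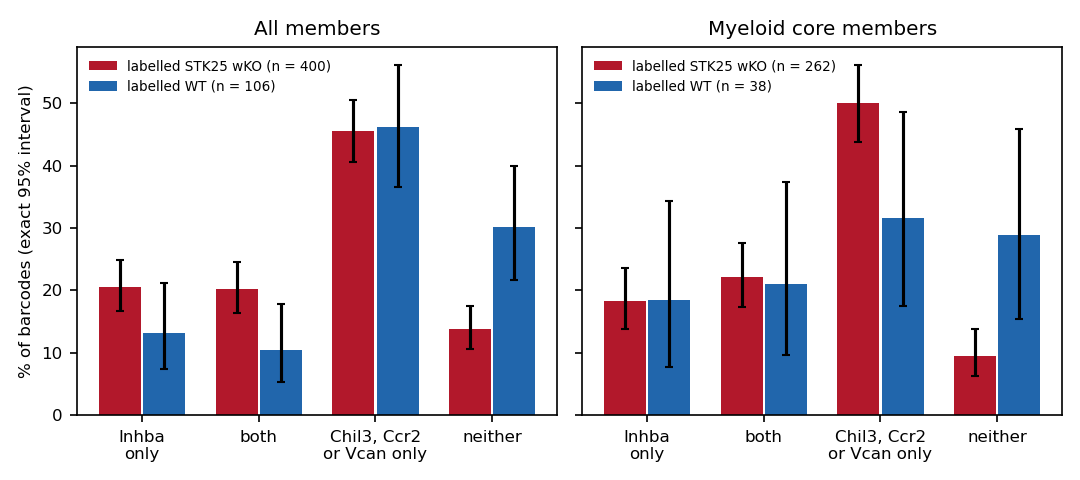
Percent of members that held UMIs of Inhba only, of both Inhba and Chil3, Ccr2 or Vcan, of Chil3, Ccr2 or Vcan only, and of neither, in the library labelled STK25 wKO (red) and the library labelled WT (blue), over all members (left) and the myeloid core (right). Bars show the share and lines its exact 95% interval, and the group with neither was larger among members labelled WT, at 30.2% against 13.8% of members labelled STK25 wKO.

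The Inhba-positive members carried a set of inflammatory, prostaglandin and hypoxia genes that members with monocyte genes alone carried at lower levels. Between the 163 members with Inhba and the 182 with Chil3, Ccr2 or Vcan only of the library labelled STK25 wKO, 3804 genes had at least 50 UMIs in all and 20 CPM in a group. Of these 218 (5.73%) were at least 2-fold higher with Inhba and 187 (4.92%) at least 2-fold lower, 10.6% in either direction, on the scale of log2(CPM + 1), and the 7 genes that admit a cell are counted among them but left out of the lists that follow. Depth was close, with medians of 2602 UMIs in members with Inhba only, 3372 in members with both and 3025 in members with Chil3, Ccr2 or Vcan only.

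Nos2, the inducible nitric oxide synthase, had 550 CPM in members with Inhba and 17.4 CPM in members with monocyte genes alone, and was found in 24.5% and 4.95% of them. Arg1, the arginase that uses the same substrate, had 1183 against 237 CPM. Nos2 and Arg1 were found together in 24 members, 47.1% of the 51 with Nos2, while 28.9% of the 349 members without Nos2 held Arg1. Slc7a2, an arginine transporter, had 203 against 13.1 CPM. Slc7a2 was named after its value was seen.

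Ptgs2 (cyclooxygenase 2) had 1794 CPM in members with Inhba against 363 CPM, and Ptges, the prostaglandin E synthase that follows it, 162 against 14.5 CPM. Alox5ap, the partner of 5-lipoxygenase in leukotriene synthesis, went the other way, with 493 CPM in members with Inhba against 1218 CPM. Of the 7 prostaglandin and leukotriene genes tested 3 were at least 2-fold higher and 1 at least 2-fold lower with Inhba.

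Among the chemokine ligands 9 of 16 were at least 2-fold higher with Inhba and 3 at least 2-fold lower, with a median log2 ratio of 1.31 against -0.03 over all 3798 genes tested, leaving out the 7 genes that admit a cell. Cxcl3, a neutrophil attractant, had 3142 against 267 CPM. Ccl24, an eosinophil attractant, had 1566 against 30.5 CPM. Ccl3 and Ccl4, chemokines made by activated macrophages, had 1453 against 286 CPM and 2501 against 924 CPM. Ccl2, the ligand of CCR2, was lower with Inhba at 132 against 432 CPM, although 51.9% of its UMIs in members with monocyte genes alone came from 1 cell. These chemokines were thus not all higher on the same side.

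Of 24 inflammatory macrophage genes other than Inhba 16 were at least 2-fold higher with Inhba, 0 were at least 2-fold lower and the median log2 ratio was 1.39. This list shares Cxcl1, Cxcl2, Cxcl3, Ccl3 and Ccl4 with the chemokine ligands. Il1a (interleukin 1 alpha) had 1428 against 419 CPM, while Il1b, its inducible relative, had 6962 against 4001 CPM and did not reach 2-fold. Slpi, a secreted inhibitor of leukocyte proteases, had 3181 against 613 CPM, and Mmp12, the macrophage elastase, named after its value was seen, 467 against 26.2 CPM. Of the 20 glycolysis and hypoxia genes 8 were at least 2-fold higher and 0 lower, with a median of 0.65. Hilpda, a lipid-droplet protein induced by low oxygen, had 673 against 224 CPM. Ero1l, an oxidoreductase of the endoplasmic reticulum named here after its value was seen, had 899 against 134 CPM.

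Members with Chil3, Ccr2 or Vcan only had higher levels of some genes of blood monocytes, and of markers of other cells. Ly6c2, the Ly6C antigen of classical mouse monocytes, had 80.1 CPM in members with Inhba against 372 CPM in members with monocyte genes alone. Lyz2 (lysozyme) had 2575 against 6003 CPM in these groups. Clec4a3, a lectin receptor of monocytes, had 21.4 against 122 CPM. Plac8 had 898 against 1587 CPM and Hp (haptoglobin) 233 against 464 CPM, both within 2-fold. Of 10 monocyte genes tested without those 7 genes 4 were at least 2-fold lower with Inhba, 0 were higher and the median log2 ratio was -0.91. Neutrophil markers moved the same way, with 6 of 7 at least 2-fold lower with Inhba and a median of -1.51. S100a9 had 406 CPM in members with Inhba against 1936 CPM in members with monocyte genes alone, with 45.5% of the UMIs in members with monocyte genes alone from 1 cell. The T cell gene Ctla4 had 12.5 against 103 CPM and the plasma cell gene Jchain 62.3 against 683 CPM, and 91.7% of the Jchain UMIs in members with monocyte genes alone came from 1 cell. In the myeloid core labelled STK25 wKO the log2 ratio was -0.32 for Jchain and -2.72 for Clec4a3, against -3.43 and -2.46 over all members of that library. The part of neutrophils, T cells and plasma cells in the monocyte values as a set was not tested. Saa3 did not follow this division, with 725 CPM in members with Inhba and 714 CPM in members with monocyte genes alone, and neither did the MHC class II genes, of which 0 of 7 passed 2-fold.

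**Figure D3:**
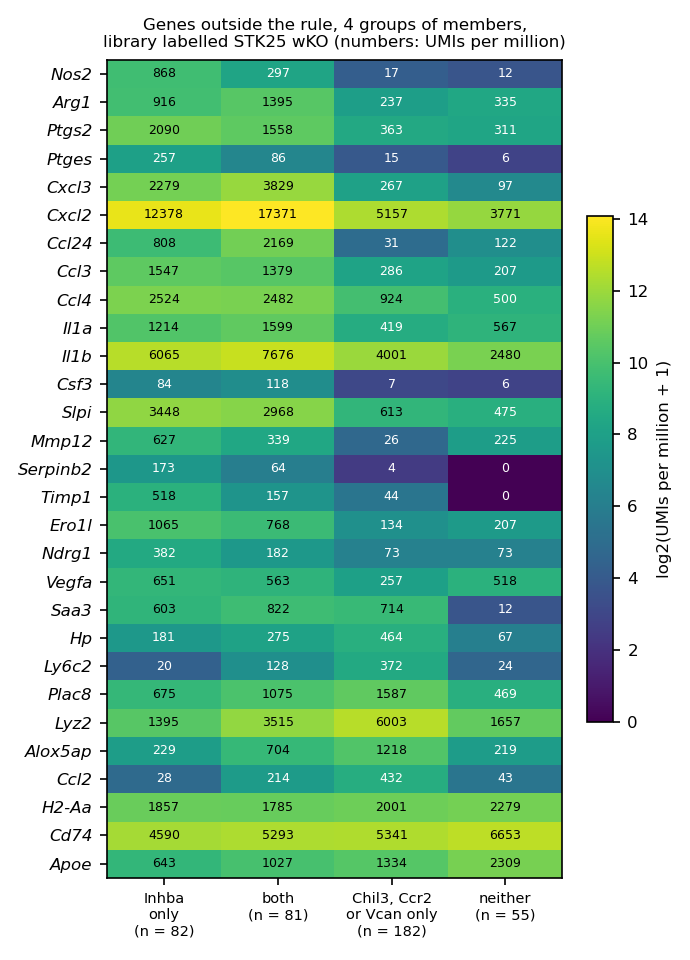
Levels of 29 genes outside the rule in the 4 groups of members of the library labelled STK25 wKO, in CPM (printed) with colour on the scale log2(CPM + 1). Nos2, Ptgs2, Cxcl3, Ccl24 and Slpi were highest where Inhba was present, and Ly6c2, Lyz2, Plac8 and Alox5ap were highest in the 182 members with Chil3, Ccr2 or Vcan only.

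The library labelled WT shares no cell with the other, and had 25 members with Inhba and 49 with monocyte genes alone. It gave the same direction for most of the genes that passed 2-fold and could be measured there. Monocyte genes and pan-myeloid genes were exceptions. Of the 217 genes, without the 7 that admit a cell, that were 2-fold higher with Inhba in the library labelled STK25 wKO 49 were tested in the library labelled WT, 45 of them were above 0 and 30 past 2-fold. Of the 184 lower genes 39 were tested, 36 were below 0, 22 past 2-fold and 1 past 2-fold the other way. Over all 1036 genes tested in the library labelled WT, 490 were above 0. In that library 138 of 1040 genes (13.3%) were 2-fold higher and 148 (14.2%) lower with Inhba, 27.5% in either direction, rule genes included. The T cell genes Ctla4, Icos and Gzmb were among the lower ones there: Ctla4 had 10.0 CPM in members with Inhba against 554 CPM in members with monocyte genes alone. Arg1 had 1001 against 104 CPM and Cxcl2, another neutrophil attractant, 4894 against 722 CPM. Monocyte genes went the other way in this library: 3 of 12 had enough UMIs, and all 3 were 2-fold higher with Inhba (median log2 ratio 1.26, against -0.91 in the library labelled STK25 wKO). Lyz2, too, had 4564 CPM in members with Inhba against 984 CPM, with 75.9% of the UMIs in members with Inhba from 1 cell. Of 8 pan-myeloid genes tested there 5 were 2-fold higher with Inhba, with a median of 1.25. In the library labelled STK25 wKO 0 of 10 were higher and the median was -0.34. Among the 45 members labelled WT with Ccr2, 16 held Tyrobp and 13 held Cd3e. The part of T cells in the comparison within the library labelled WT was not tested. MHC class II genes had a median of -1.41 in the library labelled WT, and 4 of 5 were 2-fold lower with Inhba.

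Against C1q-positive macrophages of the same library the members held less of the genes of resident macrophages, while some monocyte genes were higher. The drop was not particular to resident genes. Pan-myeloid genes had medians of -0.26 in the library labelled STK25 wKO and -1.25 in the library labelled WT, with 2 and 7 of 10 at least 2-fold lower. C1q-positive macrophages were also deeper than members, at medians of 4625 and 4381 UMIs in these libraries. Of 6560 genes tested in the library labelled STK25 wKO 302 (4.6%) were at least 2-fold higher and 358 (5.46%) at least 2-fold lower in members, 10.1% in either direction, and of 2946 in the library labelled WT 210 (7.13%) were higher and 181 (6.14%) lower, 13.3% in either direction. These counts include genes of the rule, and the counts of lists that follow leave all of them out. Among 10 monocyte genes tested in the library labelled STK25 wKO 5 were higher and 0 lower, with a median log2 ratio of 1.00 against -0.05 over all genes outside the rule. Among 6 tested in the library labelled WT 2 were higher and 0 lower, with a median of 0.57 against 0.05. Plac8, a cysteine-rich protein of monocytes and lymphocytes, had 1183 CPM in members against 200 CPM in C1q-positive macrophages of the library labelled STK25 wKO. In the library labelled WT it had 358 against 80.6 CPM. Hp had 326 against 32.9 CPM and 128 against 8.96 CPM in these libraries. Plcb1, a phospholipase C, led the ranking with 322 against 24.1 CPM and 500 against 23.9 CPM.

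Genes of C1q-rich macrophages were lower in members: 12 of 13 tested outside the rule in the library labelled STK25 wKO (median -2.08) and 11 of 12 in the library labelled WT (median -1.58). Apoe (apolipoprotein E) had 1258 CPM in members against 16092 CPM in C1q-positive macrophages of the library labelled STK25 wKO, and 1062 against 10074 CPM in the library labelled WT. Pf4 had 54.5 against 877 CPM and 31.9 against 654 CPM. Trem2, a lipid-sensing receptor of macrophages, had 55.2 against 254 CPM and 19.6 against 128 CPM. Lipid and lysosomal genes were lower as a list, with 11 of 18 and 9 of 15 past 2-fold and medians of -1.31 and -1.17. Ctsd (cathepsin D) had 267 against 1325 CPM and 120 against 917 CPM. MHC class II medians were -0.79 and -1.23, and 0 of 7 and 4 of 7 genes were 2-fold lower. Cd3g, Ctla4, Icos and Gzmb were also among the 12 genes that led the members over C1q-positive macrophages, and Cd3g had 32.5 CPM in members labelled STK25 wKO and 150 CPM in members labelled WT. The part of T cell RNA in these values was not tested.

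For chemokine and inflammatory genes the libraries gave different values against C1q-positive macrophages, and that difference was not tested. The median over inflammatory macrophage genes was 0.80 in the library labelled STK25 wKO, with 9 of 24 genes higher and 0 lower, and -0.23 in the library labelled WT, with 2 of 21 higher and 5 lower. Over chemokine ligands the medians were 0.36 (19 genes) and -1.55 (11 genes).

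Between the libraries most genes of the members lay within 2-fold. Of 5362 genes tested in members 285 (5.32%) were at least 2-fold higher and 528 (9.85%) at least 2-fold lower in the library labelled STK25 wKO, 15.2% in either direction. Scaling by the median ratio of genes in place of the total turned this split round, to 496 higher and 262 lower, and moved the median log2 ratio of all genes tested to 0.08. In C1q-positive macrophages 148 of 5118 (2.89%) were higher and 182 (3.56%) lower, 6.45% in either direction, and in the myeloid core 437 of 3729 (11.7%) higher and 669 (17.9%) lower, 29.7% in either direction, where the library labelled WT had 38 cells. Without that scaling the median was -0.17, and lists are read against it. The lists and the comparison were chosen with results of these libraries known, so their directions are no independent support.

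The largest higher values were of 2 kinds. Some came from 1 cell. Retnla, a resistin-like gene of alternatively activated macrophages, had 326 CPM in members labelled STK25 wKO and 0 UMIs in members labelled WT. Of its 461 UMIs 98.7% were in 1 barcode. The same held for Cemip (99.0%) and Lmcd1 (90.6%), and 75.0% of Ngp, a neutrophil granule gene, lay in 1 cell. Others were spread over many cells. Chil3 had 4.31% of its UMIs in its richest member and Saa3 11.4%. Wfdc21, a whey acidic protein family gene, had 82.1 CPM in 9.75% of members labelled STK25 wKO and 0 UMIs in members labelled WT. The exact interval of its ratio starts at 8.93-fold, and against a floor of 3 counts over the members labelled WT the ratio is 11.2-fold. Ly6c2 had 216 CPM in 20.8% of members labelled STK25 wKO and 9.81 CPM in 3.77% of members labelled WT. Nos2 had 228 CPM in 12.8% and 12.3 CPM in 1.89% of members, and 80% of its 5 UMIs in the library labelled WT lay in 1 cell. Ly6c2 was also found in 9.38% and 8.75% of B cells. After thinning to 1000 UMIs it was found in 8.31% of members and 6.45% of 62 B cells labelled STK25 wKO. Its share over all members thus lay close to that background at equal depth. Unthinned, Ly6c2 was uneven among members labelled STK25 wKO, in 55 of the 139 with Chil3 (39.6%) and 28 of the 261 without it (10.7%).

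Neutrophil markers overlapped the list of alarmins and acute-phase genes. S100a8, S100a9, Ngp and Ltf are on both lists, so the directions of these lists are not separate results. In the list of alarmins and acute-phase genes 11 of 16 genes tested were higher and 1 was lower. Its median log2 ratio was 2.79 (core 3.64). Without Chil3, which the rule used, 10 of 15 were higher and 1 lower, with a median of 2.29 (core 2.50). S100a8 and S100a9 encode calprotectin, the main cytosolic protein of neutrophils. S100a8 was found in 58.8% of members labelled STK25 wKO, but also in 57.8% of B cells of that library, and in 7.55% of members and 5% of B cells of the library labelled WT. S100a9 was found in 67.5% of members and 78.1% of B cells labelled STK25 wKO. These shares are read as background, although S100a8 summed to 996 CPM against 24.5 CPM and its richest cell gave 22.9% of that. Cxcr2 and Hdc were at 0 by the rule, and the summed level of 16 neutrophil markers was 3158 CPM in members labelled STK25 wKO and 780 CPM in members labelled WT. Their part in the result was not tested. Lcn2 (lipocalin 2) was found in 23.8% of members and 14.1% of B cells labelled STK25 wKO, against 1.89% and 6.25% in the library labelled WT, and thinned shares labelled STK25 wKO were 12.3% and 9.68%. Slpi was found in 46.2% of members and 28.1% of B cells in the library labelled STK25 wKO, and in 29.7% and 21.0% when both were thinned to 1000 UMIs, with levels of 1617 against 164 CPM (core log2 2.50). Wfdc17, an inhibitor of the same protease family, was found in 40.5% of members and 7.81% of B cells labelled STK25 wKO, and in 24.7% and 1.61% after thinning, with 568 against 115 CPM (core log2 2.14).

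Chemokine ligands were higher as a list and their background in B cells differed by gene. The list shares Cxcl1, Cxcl2, Cxcl3, Ccl3 and Ccl4 with that of inflammatory macrophage genes, so these lists are not separate results. Of 16 ligands tested 12 were 2-fold higher in members labelled STK25 wKO, 0 lower, and the median was 2.03. In the core 12 were higher, 2 lower and the median was 1.46. Ccl3 had 741 CPM in 38.8% of members labelled STK25 wKO and 93.2 CPM in 11.3% of members labelled WT, with 10.9% and 3.75% of B cells. Ccl4 had 1501 and 297 CPM (log2 2.33, core 1.95). Cxcl2 had 8968 CPM in 90.2% of members and 1697 CPM in 35.8%, while 59.4% and 10.0% of B cells held it, so its shares are read beside that background. Ccl24 had 651 and 83.4 CPM and no UMI in the 64 and 80 B cells. Ccl2 had 267 and 34.3 CPM, with 40.7% of the UMIs labelled STK25 wKO in 1 cell. In the core Ccl3, Cxcl2, Ccl24 and Ccl2 stayed past 2-fold, and Ccl24 had a log2 ratio of 2.10 and Ccl2 of 2.48. The interferon-induced Cxcl9 and Cxcl10, which attract T cells through CXCR3, were not higher: their log2 ratios were -0.86 and -0.79, and -1.87 and -1.58 in the core.

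Cytokine genes were split. Tnf had 434 CPM in 34.0% of members labelled STK25 wKO and 78.5 CPM in 15.1% of members labelled WT (log2 2.45, core 1.95). Il23a, the p19 subunit of interleukin 23, had 108 and 12.3 CPM, and Csf3, the neutrophil growth factor G-CSF, 45.3 and 4.91 CPM from 64 and 2 UMIs. Their log2 ratios were 3.03 and 2.97 over all members and 4.21 and 2.08 in the core, where Il23a had 1 UMI and Csf3 2 UMIs in the library labelled WT. Il6 stood at 49.5 and 61.3 CPM (log2 -0.30), and its interval of -0.99 to 0.41 holds 0. Il1b was at 5001 and 2109 CPM and Il1a at 837 and 277 CPM, with log2 ratios of 1.25 and 1.59 over all members and of 0.78 and 0.82 in the core.

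**Figure D4:**
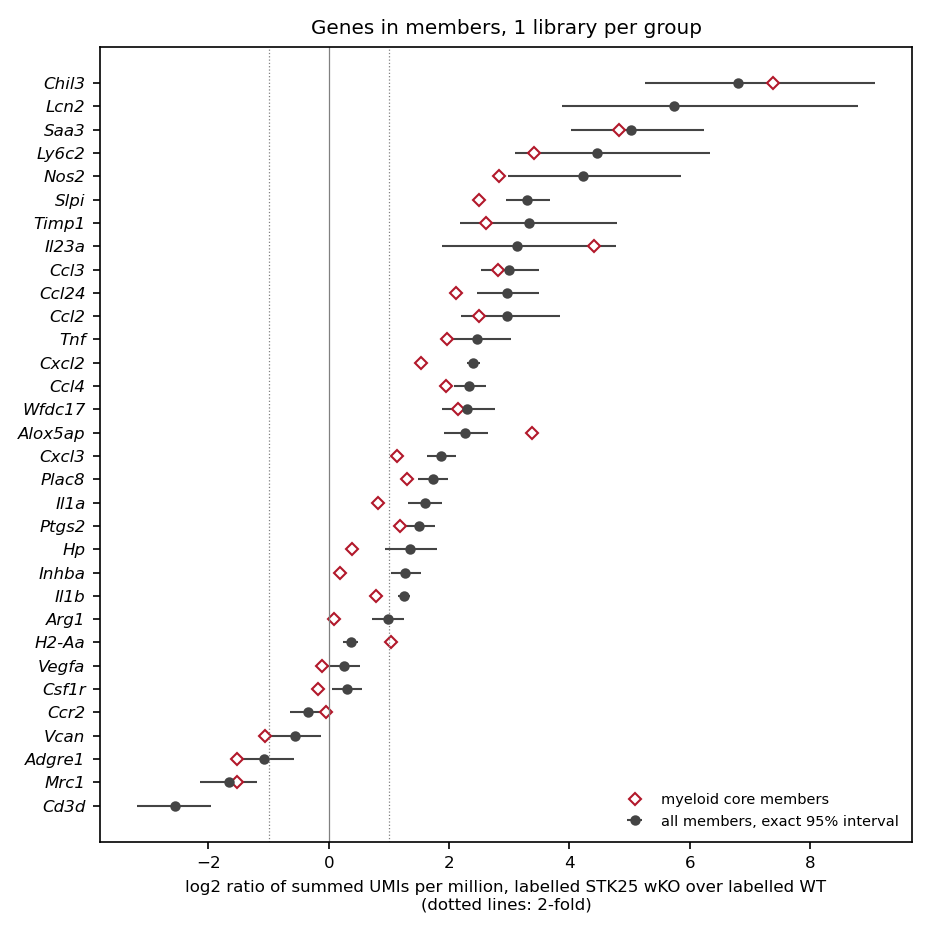
Log2 ratio of CPM without pseudocount, library labelled STK25 wKO over library labelled WT, for 32 named genes in all members (grey points with exact 95% counting intervals) and in the myeloid core (open diamonds, drawn where both libraries had a UMI). Chil3, Saa3, Ly6c2 and Nos2 stayed past 2-fold in the core, while Inhba and Arg1 moved close to 0. The core labelled WT held 38 cells, so its low values rest on few UMIs.

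Several ratios were smaller in the myeloid core. Inhba had a log2 ratio of 1.27 (interval of the ratio without pseudocount 1.03 to 1.53) over all members and 0.19 in the core. Arg1 had 0.98 and 0.08, and Hp 1.35 and 0.38. Spp1 (osteopontin) had 0.46 and -0.69, and 74.9% of its UMIs in members labelled WT came from 1 cell. Over the 25 inflammatory macrophage genes 16 were higher and 0 lower with a median of 1.5, and in the core 10 were higher and 0 lower with a median of 0.82. Without Inhba, which the rule used, 15 of 24 were higher with a median of 1.55 (core 0.82). Over the 20 glycolysis and hypoxia genes 10 were higher, 0 lower and the median was 0.99, and in the core 3 were higher with a median of 0.62. Gapdh (glyceraldehyde 3-phosphate dehydrogenase) had log2 ratios of 1.22 and 1.46 in members and core, and Slc2a1, the glucose transporter, -0.02 and -0.57.

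Of 13 monocyte genes tested 7 were 2-fold higher and 0 lower (core 6 and 2). Chil3, Ly6c2, Plac8, Hp, Fn1, Clec4a3 and Mcemp1 were above 2-fold, and Ccr2, Vcan, Gda, Itga4 and Ms4a4c below 0. The intervals of Gda (-0.331 to 0.225), Itga4 (-0.614 to 0.184) and Ms4a4c (-1.03 to 0.081) hold 0. Scaling by the median ratio raises every gene alike, and turned Gda to 0.19. Without Chil3, Ccr2 and Vcan, which the rule used, 6 of 10 were higher and 0 lower with a median of 1.20, and in the core 5 were higher and 1 lower with a median of 0.79. Alox5ap stood at 814 CPM in members labelled STK25 wKO and 169 CPM in members labelled WT (log2 2.26, core 3.36). Among the receptors for antibody, Fcgr4 had a log2 ratio of 2.48 and Fcgr3 of 1.68, with 2.24 and 1.33 in the core. MHC class II genes had a median of 0.36 over all members and 0.98 in the core, where 3 of 7 were 2-fold higher and 1 lower. Ciita, the master regulator of class II transcription, was the lower one in both, at -1.37 and -1.96.

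The genes that were lower in the library labelled STK25 wKO included markers of other cells and of resident macrophages. Tagln and Acta2, contractile genes of smooth muscle, stood at 5.66 and 9.90 CPM in members labelled STK25 wKO and at 135 and 123 CPM in members labelled WT, where 1 cell gave 92.7% and 90.0% of the UMIs. Cd3d, a chain of the T cell receptor complex, had 26.2 against 155 CPM. Of 17 genes of C1q-rich and tissue macrophages 5 were 2-fold lower and 1 higher, and without the genes of the rule 4 of 12 were lower and 1 higher. Mrc1, the mannose receptor, had 58.0 and 184 CPM (log2 -1.65, core -1.50), and Mertk, a receptor for dying cells, a log2 ratio of -1.86 over all members and -2.33 in the core. Adgre1, which encodes F4/80, had 66.5 and 140 CPM, and 45.3 and 130 CPM in the core.

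Other genes of the activin and TGF-beta pathway lay near the median of all genes or below it. Of 11 genes tested 1, Inhba, was 2-fold higher and 2, Tgfbr2 and Smad3, were 2-fold lower in members labelled STK25 wKO, with a median of -0.24 against -0.17 over all genes. Tgfbr2, a receptor for TGF-beta, had a log2 ratio of -1.40 and Smad3, a transducer of activin and TGF-beta, of -1.68, with -1.77 and -2.01 in the core, where the list had a median of -0.49. Acvr2a, an activin receptor, had 51.6 and 68.7 CPM, and Fst, which binds and blocks activin, had 3 and 2 UMIs in all. Interferon response genes had a median of -0.28 with 1 of 12 higher and 2 lower, and in the core of -0.09 with 2 of 10 higher and 4 lower. Among the 6 cell cycle genes tested 4 were lower and 0 higher with a median of -1.52, and Mki67 and Top2a were at -1.72 and -1.90. In the core only 1 cell cycle gene was tested. The part of T cells in these cell cycle values was not tested.

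**Figure D5:**
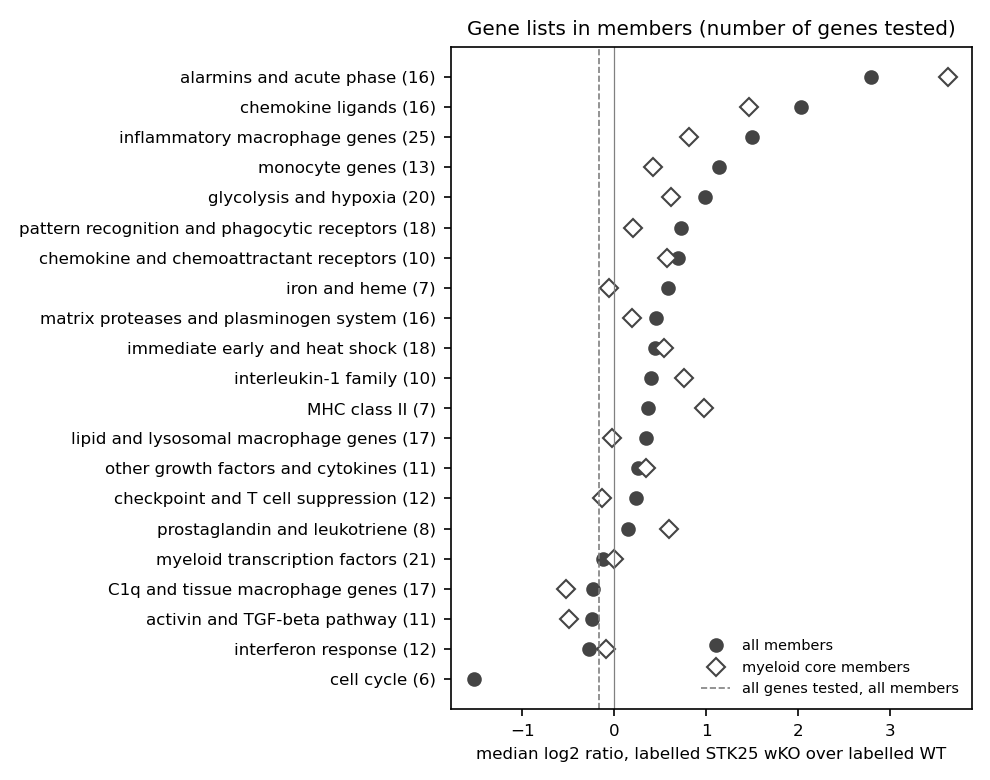
Median log2 ratio, library labelled STK25 wKO over library labelled WT, of 21 gene lists with 5 or more genes tested, over all members (filled) and the myeloid core (open), with the median of all genes tested (-0.17) as a dashed line. Alarmins, chemokine ligands, inflammatory macrophage genes and monocyte genes had medians of 2.79, 2.03, 1.5 and 1.14, and cell cycle genes of -1.52. The lists include genes of the rule. Without them the medians of alarmins, inflammatory macrophage genes and monocyte genes were 2.29, 1.55 and 1.20.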

How the data were processed

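For each of the 2 libraries a matrix of unnormalised UMI counts was deposited by the authors, with Cell Ranger 7.1.0 in its header and mm10 as the build in the submitters' notes. The labels leave the 10x chemistry (v2 or v3) and the sequencer open, and the submitters' notes also name Seurat. Counts were read with Python 3.11.15 and scipy 1.17.1, without correction for free RNA. Depth per library and per member is given above. Barcodes with under 200 genes (3 and 2) or over 25% mitochondrial UMIs (282 and 270) were left out. UMIs were summed over the members of a library and scaled to CPM. With 1 library per group, no test, p-value or SE was computed. A gene was compared with at least 50 UMIs in both populations together and 20 CPM in one, its log2 ratio used a pseudocount of 1 CPM, and 2-fold was the limit. The scripts were tested on simulated data. Intervals were exact (Poisson, Clopper-Pearson, or conditional binomial for ratios). Scrublet (scanpy 1.11.5) marked 0 doublets by its own threshold, so the highest scores at an expected rate of 11.1% and 9.81% were removed as an alternative only.

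Named genes were the rule genes and markers, Stk25, the 15 with the largest ratios in each direction between libraries, the 12 in each direction against C1q-positive macrophages, and for each list the 4 with the most UMIs and those past 2-fold. Ero1l, Slc7a2, Mmp12, Spp1, Il6, Slc2a1, Cxcl9, Acvr2a, Fst, Itga4, Ms4a4c and Malat1 fall outside it and were added after their values were seen. T cells as a background were also added after seeing the data. Members, lists and tests were chosen with earlier results of these data known. Of 32285 genes per file, coordinates came from GENCODE M21. Promoter sequences are from RefSeq (GRCm38.p6).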

Additional observations from a re-analysis of the deposited data

Results flagged for a closer look

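For 2 genes the ratio between libraries was at least 2-fold in opposite directions in members and in C1q-positive macrophages. Ndrg1, a stress gene induced by low oxygen, had log2 ratios (library labelled STK25 wKO over library labelled WT) of 1.84 in members and -1.45 in C1q-positive macrophages, and Lif, a cytokine of the interleukin 6 family, of 1.12 and -1.39. With each cell thinned to 1000 UMIs the ratio of Lif in members was -0.253, so the opposite direction was not kept for it. For 2 others the ratio of members over C1q-positive macrophages was opposite in the libraries. Ccl3 had log2 ratios of 1.47 in the library labelled STK25 wKO and -1.37 in the library labelled WT, and Wfdc17 of 1.24 and -1.10. With 1 library per group none of these differences was tested.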

How the results depend on the processing

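No paired analysis was possible because each group has 1 library, and no replicate could be left out. Kept barcodes were not set to equal depth in any alternative. The order of the libraries in the share of members held under every alternative run, while the shares themselves depend on the limits. They were 3.578% in the library labelled STK25 wKO and 1.173% in the library labelled WT when barcodes needed 500 genes and no more than 10% of UMIs from mitochondria, 1.649% and 0.3015% under the stricter gate, and 1.887% and 0.3097% in the myeloid core. With the looser C1q limit the share labelled STK25 wKO was 3.249%. Under the stricter gate, members with both Inhba and Chil3, Ccr2 or Vcan made up 25.76% and 21.62%, members with neither 3.93% and 8.108%, and members with Inhba only 24.32% in the library labelled WT. Members with neither made up 18.4% with the looser C1q limit and 9.542% in the core of the library labelled STK25 wKO. In the core of the library labelled WT members with both made up 21.05% and those with Chil3, Ccr2 or Vcan only 31.58%. Thinned to 1000 UMIs, the groups with both held 7.809% and 1.905%, those with Chil3, Ccr2 or Vcan only 36.02% and 31.43%, and those with neither 34.76% and 55.24%, since fewer UMIs leave fewer genes detected.

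Counts of genes past 2-fold follow the minimum. Between libraries they were 508 higher and 1120 lower at 20 UMIs with no CPM minimum, and 123 and 87 at 200 UMIs. Against C1q-positive macrophages at these minimums they were 640 and 624, then 90 and 134, in the library labelled STK25 wKO, and 638 and 410, then 20 and 55, in the library labelled WT. Thinning gave 133 lower between libraries, 106 higher and 139 lower against C1q-positive macrophages in the library labelled STK25 wKO, and 32 and 49 in the library labelled WT. Median ratio scaling gave 496 higher and 262 lower, the core 437 higher, the looser C1q limit 359 higher against C1q-positive macrophages in the library labelled WT, and leaving out the cell richest in each gene, an alternative chosen after seeing the data, 322 lower. List medians moved to 0.125 (iron and heme, stricter gate), to -0.027 (lipid and lysosomal), 0.979 (MHC class II), 0.200 (pattern recognition) and -0.052 (iron and heme) in the core, to 0.459 (C1q and tissue macrophage genes) when thinned, and to 1.240 (glycolysis and hypoxia) under median ratio scaling. The log2 ratio of Lif turned to -0.253 when thinned, and the cause was not tested. Of 134 named genes past 2-fold, 68 of the 96 with a value in the core, 114 of 124 without the highest Scrublet scores and 107 of 111 without the richest cell stayed past it.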

Other observations

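Thbs1 (thrombospondin 1, a matrix glycoprotein) stood at 1550 CPM in members labelled STK25 wKO and 1371 CPM in members labelled WT, and at 543 and 263 CPM in the C1q-positive macrophages of these libraries. Vegfa, the vascular growth factor, was at 424 and 356 CPM in members, with an interval of the log2 ratio of -0.01 to 0.53 that holds 0. Cd274, which encodes PD-L1, was at 434 and 319 CPM in members (log2 ratio 0.45) and at 402 and 465 CPM in the myeloid core (-0.21), while 35.9% of B cells labelled STK25 wKO and 21.2% labelled WT held a UMI of it.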
